A study of Ambystoma mexicanum with 20 samples.

Results

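In 4 oocytes of the axolotl (Ambystoma mexicanum, a salamander), 120 of the 32960 transcript features of the count table had at least 80% of their level in segment E, the vegetal end of the egg cell. The 120 RNAs were chosen from the same libraries that describe them here. A level is given in CPM, the count divided by the total of its library and scaled so that each library sums to the same fixed total, each segment was averaged over the 4 oocytes, and the share of a segment is its mean divided by the sum of the 5 segment means. A member had a mean of at least 2 CPM over the 20 libraries, a share of E of at least 80%, and a higher CPM in E than in A in each of the 4 oocytes. The members make up 0.364% of all features.

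Each oocyte was frozen in embedding medium, sliced and divided along its axis into the segments A (animal end), B, C, D and E (vegetal end), with 1 library per segment and oocyte. Oocytes carry the numbers 1 to 4 of the labels' oocyte identifier. Every group is the same cell type, the oocyte, and differs from the others in its position on the axis alone; genotype, strain, age of the females and stage of the oocytes are not given in the labels, nor is it said whether the 4 oocytes came from different females. P-values therefore speak for these 4 oocytes alone. For D against C they rest on the spread between libraries of the same segment, pooled over all segments and without pairing by oocyte. For the test among oocytes they rest on the spread left after segment and oocyte. Every library started from 80 ng of total RNA, so a CPM is a share of the RNA of a segment, and more of an RNA in E cannot be told apart from less of all other RNA there. Library totals ran from 806943 counts in segment E of oocyte 2 to 15554319 in segment A of oocyte 4. The feature identifiers carry no gene names, and 0 of them matched the RefSeq gene table of the axolotl, so neither the oocyte label nor the function of a member could be checked against marker genes. Members are called here by their rank in mean CPM, from 1 (538.9 CPM) to 120 (2.02 CPM). The rank orders reads and not molecules, because transcript lengths were not used.

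In amphibian oocytes the animal side holds the nucleus, and the vegetal side holds most of the yolk and will give rise to endoderm. In the frog Xenopus, RNAs are carried to the vegetal cortex during oogenesis by an early route through the mitochondrial cloud and by a later route along microtubules. The RNAs carried there in the frog include those for the endoderm determinant VegT, the signalling protein Vg1 and components of the germ plasm such as Nanos and Dazl. Salamanders are known to specify their germ cells by signals between tissues of the embryo and not by inherited germ plasm. None of the 120 features can be assigned to these genes here.

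The rule left little of a member outside E, and what was left lay mostly in D. The share of E ran from 80.1% to 99.1% with a median of 86.0%. It was at least 85% in 72 members, at least 90% in 28 and at least 95% in 4. Segment D held 10.5% in the median (0.916% to 16.6%), segment C 0.961%, B 0.365% and A 0.575%. D was the next highest segment in 119 members. The exception was the member of rank 81, with 4.03% in D. Just inside the threshold lay members with shares of 80.06% and 80.3%, and just outside it features with 79.96% and 79.94% (mean CPM 72.9 and 3.00 inside, 15.1 and 7.71 outside). The threshold thus cuts through a continuous range of shares. A further 650 features met the same rule at a share of E from 50% to under 80%, and they serve below as the nearest comparison.

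**Figure D1:**
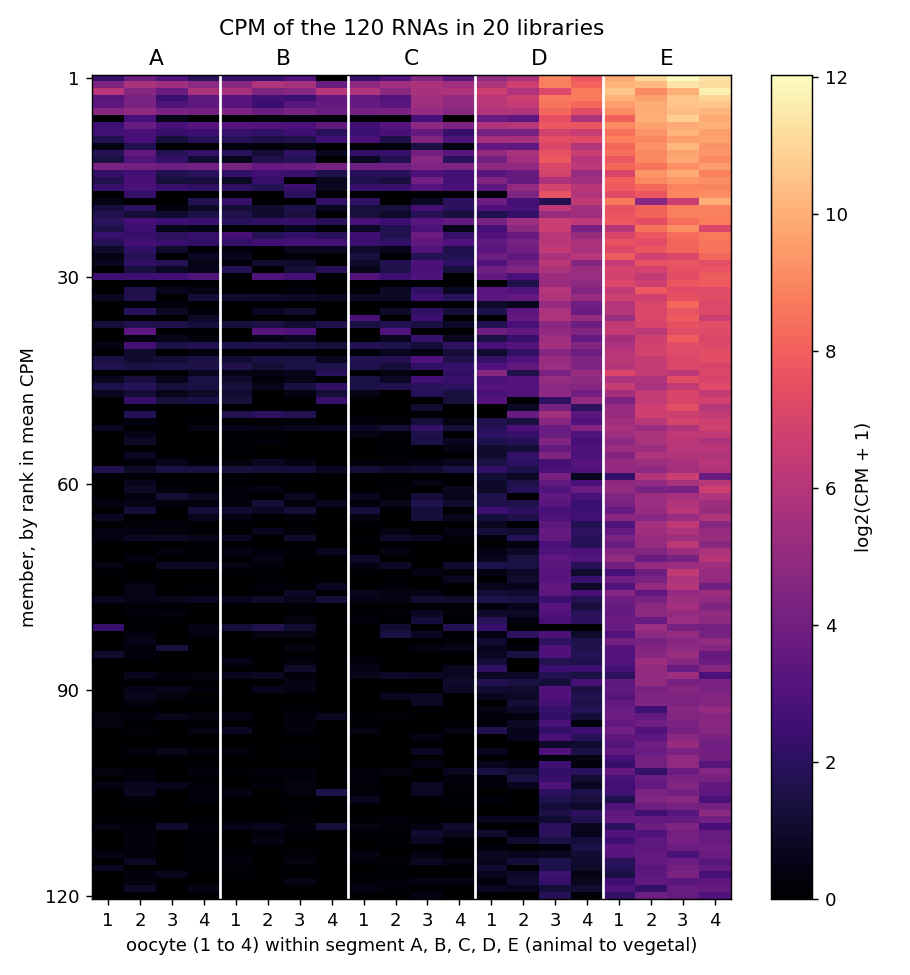
CPM of the 120 RNAs in the 20 libraries, as log2(CPM + 1), with 1 row per member in order of mean CPM and the 4 oocytes side by side within each segment. All 120 rows are brightest in E in every oocyte, and most of the lower rows are dark in A, B and C. In most rows D is brighter in oocytes 3 and 4 than in oocytes 1 and 2, with exceptions such as ranks 19 and 81.

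The 120 RNAs together made up a small share of all counts outside E and a few percent within it. Segment A gave them 0.0239% ± 0.00701 of its counts and segment B 0.0205% ± 0.000726. Segment C gave 0.0344% ± 0.0154, segment D 0.299% ± 0.236 and segment E 2.41% ± 0.888 (each the mean ± SD of 4 oocytes). Within E they held 1.39% in oocyte 1, 1.95% in oocyte 2, 3.25% in oocyte 3 and 3.06% in oocyte 4. The same oocytes stood high in D, with 0.0936%, 0.117%, 0.587% and 0.397% in oocytes 1 to 4. In A the highest value, 0.0341%, was in oocyte 2, and the others lay from 0.0179% to 0.0222%. The 95% Wilson interval was widest relative to its value in B of oocyte 4 (0.0200%, from 0.0178% to 0.0224%) and, within E, in oocyte 2 (1.95%, from 1.92% to 1.98%). These intervals cover counting error only. The 10 members of highest mean CPM supplied from 50.5% to 54.7% of the members' counts in E in the 4 oocytes, and 9 members sufficed for 50% of the members' summed mean CPM in E.

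**Figure D2:**
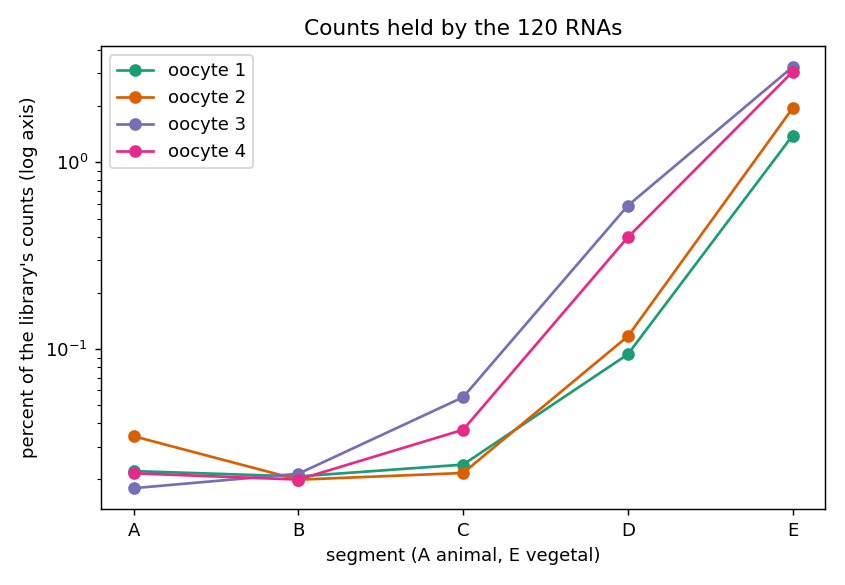
Percent of each library's counts held by the 120 RNAs, on a log axis, by segment from animal (A) to vegetal (E), with 1 line per oocyte. The lines lie between 0.0179% and 0.0552% in A, B and C and reach 1.39% to 3.25% in E, and oocytes 3 and 4 lie above oocytes 1 and 2 from C onwards.

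The member of rank 1 had 4.00, 13.8, 7.26 and 2.83 CPM in A of oocytes 1 to 4, and 3.69, 4.24, 7.08 and 0 CPM in B. It had 3.82, 7.59, 23.0 and 9.14 CPM in C, and 29.0, 47.4, 480.4 and 201 CPM in D. In E it had 927, 2233, 4178 and 2595 CPM. Every library of E lay above every library of the other segments, and D of oocytes 3 and 4 stood far above D of oocytes 1 and 2. Its share of E was 92.2%, and its mean in E was 345-fold the mean over the libraries of A, B and C.

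The members of ranks 2 and 3 kept a measurable level across the whole oocyte. Rank 2 ranged over the 4 oocytes from 20.7 to 49.5 CPM (A), 12.9 to 56.4 CPM (B), 28.6 to 53.6 CPM (C), 55.6 to 451 CPM (D) and 1140.3 to 2725 CPM (E). Rank 3 ranged from 13.3 to 64.3 CPM (A), 20.1 to 67.4 CPM (B), 25.4 to 59.0 CPM (C), 57.1 to 401 CPM (D) and 543 to 3258 CPM (E). Their levels in E were 50.4-fold and 37.6-fold the mean over the libraries of A, B and C, with mean levels in A, B and C from 34.4 to 48.0 CPM. The members of ranks 4, 5, 6, 8 and 10 also had counts in every library. Their mean levels outside D and E were lower, from 3.09 to 21.7 CPM in A. In B these ran from 2.84 to 15.6 CPM and in C from 8.88 to 23.2 CPM. These 5 members had mean levels of 637 to 1358 CPM in E, shares of E from 82.3% to 84.2% and shares of D from 11.7% to 15.2%. Rank 9 was steeper, with 341, 651, 1145 and 751 CPM in E, against 17.2, 17.6, 115 and 88.7 CPM in D, and a share of E of 90.6%.

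Other abundant members were close to absent outside D and E. Rank 7 averaged 1022 CPM ± 635 in E and 61.6 CPM ± 76.7 in D (SD, n = 4 each), and 7 of its 12 libraries of A, B and C had 0 counts. The others held 1, 2, 2, 15 and 40 counts. Rank 11 had the highest ratio of E to the mean over the libraries of A, B and C, 1383-fold. This ranking is among the members with more than 3 counts in some library of those segments. Rank 11 averaged 681 CPM ± 365 in E, 53.1 CPM ± 57.3 in D and 0.607 CPM ± 0.818 in C (SD, n = 4 each), and it is singled out after its values were seen.

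For 5 members there were 0 counts outside D and E, and in 31 members each of the 12 libraries of segments A to C had at most 3 counts. With a floor of 3 counts per library (0.664 CPM on average over A, B and C), these 31 were at least 13.6-fold to at least 256-fold higher in E than the mean over the libraries of A, B and C. The highest of these bounds belonged to AMEXTC_0340000203149 (rank 31). It had 141, 102, 205 and 233 CPM in E of oocytes 1 to 4, against 0, 2.23, 36.5 and 27.3 CPM in D and 0 counts in each of the 12 libraries from the other segments. AMEXTC_0340000070559 (rank 55) had 38.0, 37.2, 67.8 and 69.8 CPM in E, against 1.11, 1.39, 11.3 and 6.85 CPM in D. Segments A to C together gave it 4 counts in their 12 libraries, at most 2 in a library. Both features were thus higher in D of oocytes 3 and 4 than in D of oocytes 1 and 2, as rank 1 was. The other 89 members had E levels 19.99-fold to 1383-fold the mean over the libraries of A, B and C, with a median of 92.7-fold. Over all 120, with the 31 at their lower bounds, the median was 73.4-fold.

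The highest share of E was that of rank 100, with 99.1%. It had 6.16, 16.1, 30.8 and 15.2 CPM in E, against 0, 0, 0.235 and 0.395 CPM in D and 0 counts elsewhere. Rank 98, which is added after its values were seen, had 97.3%, with 7.97, 14.9, 34.1 and 14.8 CPM in E, against 0, 0, 0.941 and 1.05 CPM in D and 0 counts elsewhere. Both had few counts, with 1 and 3 counts (rank 100) and 4 and 8 counts (rank 98) in D of oocytes 3 and 4. The lowest share, 80.1%, was that of rank 22, with 224, 176, 337 and 429 CPM in E, against 18.3, 39.0, 97.0 and 74.6 CPM in D.

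The rule limits what the other 4 segments hold together and does not say whether D lies above C, so D was tested against C. The test was edgeR's quasi-likelihood test on the raw counts of all 20 libraries, with TMM scaling and adjustment over 32302 features. With C and D alone 50 of the 120 members would pass the filter on low counts. Of these 50, 41 (82%) were called higher in D at an adjusted p under 0.05, against 2.46% of all features that pass it. High counts in D alone can carry a member with few counts in C through that filter. Rank 7 passed it with 1, 0, 15 and 0 counts in C of oocytes 1 to 4, against 66, 34, 735 and 394 in D. For such members a call is partly built in, and how many of the 50 they are was not counted. The 82% is therefore not read as support for a rise in D. The other 70 entered the test through counts in other libraries, among them those of E, where the rule makes them high. Their 27 calls (38.6%, against 2.02% of all features that do not pass it) are therefore no support for a rise in D. Over all 120 members, 68 (56.7%) were called higher in D and 0 lower. Among all features tested, 2.42% were called higher in D and 0.888% lower. Calls among the 650 features named above as the nearest comparison were not counted. Their median level in C was 9.65%, 7.22%, 11.6% and 9.36% of that in E in oocytes 1 to 4. In D it was 21.8%, 27.5%, 50.2% and 36.3%. The medians of these features thus also rose from C to D, so a higher D is not read as a trait of the 120 alone. At an unadjusted p under 0.05, 112 members were higher and 0 lower in edgeR, and 109 higher and 0 lower in DESeq2. Over all features, 3938 of 32302 (edgeR) and 4530 of 32960 (DESeq2) passed that threshold in either direction. At an adjusted p under 0.05 DESeq2 called 88 members higher, against 3.65% of all features. A fit of C and D alone called 0 members and 0 of all features. The fitted log2 fold change was above 0 in all 120 members with a median of 3.82, against 0.00 over all features tested. In 46 members C had at most 3 counts in each library, and with these at their lower bounds the median over the 116 members that have a fold or a bound was 2.84. The 68 comprised 22 with C at that floor and 46 above it, and in those 46 the fitted log2 fold change ran from 1.92 to 7.16. By rank the 68 calls comprised 26 in ranks 1 to 30, 24 in ranks 31 to 60, 9 in ranks 61 to 90 and 9 in ranks 91 to 120. The counts over all 120 members, by method, threshold, floor or rank, were not split by the filter on C and D alone. They include the members that entered through other libraries, so they are description and no support for a rise in D.

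Leaving out oocyte 4 lowered the number of members called in D against C to 5, against 0.583% of all features called higher in D. It was 18 without oocyte 3 (0.726% of all features), 30 without oocyte 2 (0.909%) and 50 without oocyte 1 (1.96%), with 0 members called lower in each case. Without oocyte 1, 1 member was lower in D at an unadjusted p under 0.05. On the authors' scaling the median log2 fold change of all features shifts to -1.87. There the members' median was 1.95, 116 were above 0, and 47 were called higher in D beside 0.344% of all features. The counts in this paragraph were not split by the filter on C and D alone. They include members that entered through other libraries, among them those of E, and are no support for a rise in D.

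**Figure D3:**
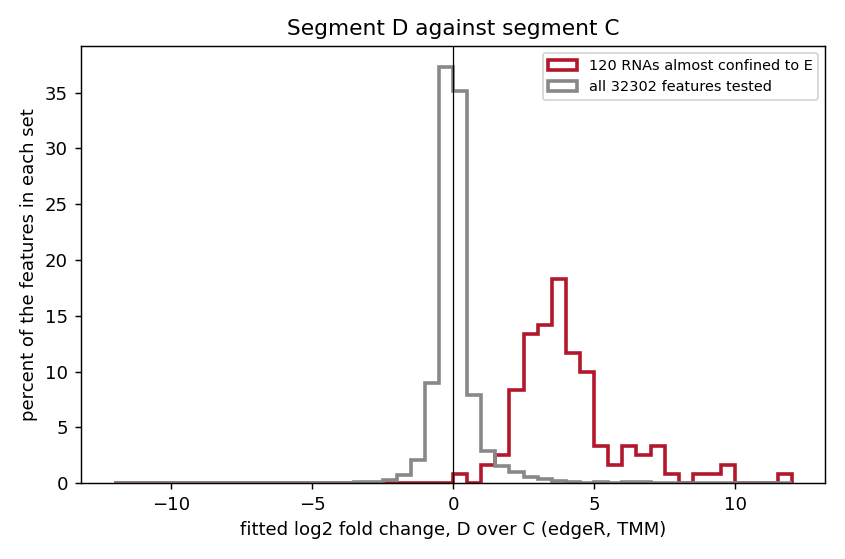
Distribution of the fitted log2 fold change of D over C (edgeR, TMM scaling) for the 120 RNAs and for all 32302 features tested, as the percent of each set per bin of the log2 scale. All features centre on 0 and the 120 RNAs lie above 0 with a median of 3.82; values above about 8 belong to members with 0 counts in C and depend on the prior count.

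Rank 1 had a mean of 189.5 CPM ± 209 in D, against 10.9 CPM ± 8.37 in C (SD, n = 4 each), a log2 fold change of 4.38 ± 0.88 (SE) with an adjusted p of 0.00843 (edgeR; 4.51e-05 to 0.129 over 12 alternatives, of which 8 passed). Its call was lost without oocyte 2 (adjusted p 0.0593), 3 (0.0604) or 4 (0.114) in edgeR. Each library of D lay above each library of C. Rank 10 had 47.1, 46.2, 175 and 149.8 CPM in D, against 5.88, 1.94, 20.4 and 7.28 CPM in C, and a log2 fold change of 3.82 ± 0.60 (SE) with an adjusted p of 0.00160 (edgeR; 3.23e-08 to 0.109 over 12 alternatives). Without oocyte 4 its adjusted p was 0.0595 (edgeR). Its level in each oocyte was higher in D than in any library of C. Rank 3 had 102, 57.1, 142 and 401 CPM in D, against 59.0, 25.4, 50.3 and 57.4 CPM in C. D was higher in 4 of 4 oocytes for rank 3, yet the groups overlapped and the test did not pass (log2 fold change 1.97 ± 0.65 SE, adjusted p 0.131, edgeR). With the oocyte as a block its adjusted p was 0.00957 (edgeR), and over all 12 alternatives it ran from 0.00957 to 0.888. The highest was that with the authors' constants. Among ranks 1 to 10, rank 3 alone did not pass. Each of the others lost its call without oocyte 4 (adjusted p 0.0526 to 0.162, edgeR). Each also lost it in the fit of C and D alone (adjusted p 0.109 to 0.157, edgeR).

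The largest fitted changes from C among the called members were those of ranks 18 and 50, both with 0 counts in all 4 libraries of C. Rank 18 had 0.185, 20.3, 191 and 59.2 CPM in D, at least 113-fold higher than in C (adjusted p 0.0185, edgeR; 0.000421 to 0.243 over 11 alternatives). Rank 50 had 0, 12.5, 43.5 and 9.36 CPM in D, at least 27.3-fold higher than in C (adjusted p 0.0218, edgeR; 4.36e-05 to 0.228 over 11 alternatives). Leaving out oocyte 2, 3 or 4 each ended the call, with adjusted p of 0.146, 0.243 and 0.146 for rank 18 and 0.156, 0.228 and 0.122 for rank 50 (edgeR). In both the higher level in D came from oocytes 2, 3 and 4, since D of oocyte 1 held 1 count and 0 counts. Ranks 18 and 50 are among the 70 members that do not pass the filter on low counts with C and D alone. Their calls are therefore no support for a rise in D. AMEXTC_0340000203149 was at least 27.5-fold higher in D than in C but did not pass (adjusted p 0.0731, edgeR; 0.00302 to 0.360 over 11 alternatives, of which 2 passed). AMEXTC_0340000070559 was at least 8.62-fold higher in D (adjusted p 0.00633, edgeR; 9.90e-05 to 0.0942 over 11 alternatives, of which 9 passed). Its call was lost without oocyte 3 (0.0942) or oocyte 4 (0.0788). Both features are also among the 70 that do not pass that filter, so their p-values are no support for a rise in D. The fit of C and D alone is missing for them and for ranks 18 and 50, which leaves 11 alternatives.

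Counted by oocyte, D exceeded C in 101 members in oocyte 1, 102 in oocyte 2, 119 in oocyte 3 and 117 in oocyte 4. D exceeded C in all 4 oocytes in 90 members, against 9.48% of all features of the table. In 64 members (53.3%) every library of D lay above every library of C, against 3.23% of all features. Neither the 90 nor the 64 was split by the filter on C and D alone. Both include members that met the minimum mean CPM mainly through E, where the rule makes them high. They are description and no support for a rise in D. In 46 members each library of C had at most 3 counts, and in 31 so had each library of A, B and C. Many of the orders in single oocytes thus rest on a few reads, and their shares over all features were not computed. Between C and A the numbers of members differed by oocyte, again without shares over all features in single oocytes. They are therefore not read as a trait of the members. C was above A in 46 members and below it in 31 in oocyte 1, above in 23 and below in 76 in oocyte 2, above in 70 and below in 17 in oocyte 3, and above in 66 and below in 27 in oocyte 4. C exceeded A in all 4 oocytes in 5 members (4.17%), against 7.03% of all features.

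How far the members reached from E into D differed between the oocytes. The median level in D was 6.37% of that in E in oocyte 1, 5.89% in oocyte 2, 19.3% in oocyte 3 and 11.1% in oocyte 4. The ratio of D to E was highest in oocyte 3 in 88 members (73.3%), and lowest in oocyte 1 in 58 members and in oocyte 2 in 52. Shares over all features were not computed for these counts, so they are not read as a trait of the members. Within an oocyte all members share the same library of D and the same library of E. For rank 1 it was 3.13%, 2.12%, 11.5% and 7.75% in oocytes 1 to 4. The level in C was a median of 0.723%, 0.356%, 1.22% and 0.555% of that in E in the same order. The 650 features with a share of E from 50% to under 80% had median levels in D of 21.8%, 27.5%, 50.2% and 36.3% of those in E. They too were higher in oocytes 3 and 4, but oocyte 2 stood above oocyte 1, and 68.8% of them had their highest ratio in oocyte 3. Features with a mean of at least 2 CPM and a count above 0 in E of that oocyte numbered 28236, 24009, 26993 and 28092 of 29120. Their medians were 112%, 112%, 109% and 116%, lowest in oocyte 3. The labels give no measured position of the cuts, and what moves the ratio was not tested.

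**Figure D4:**
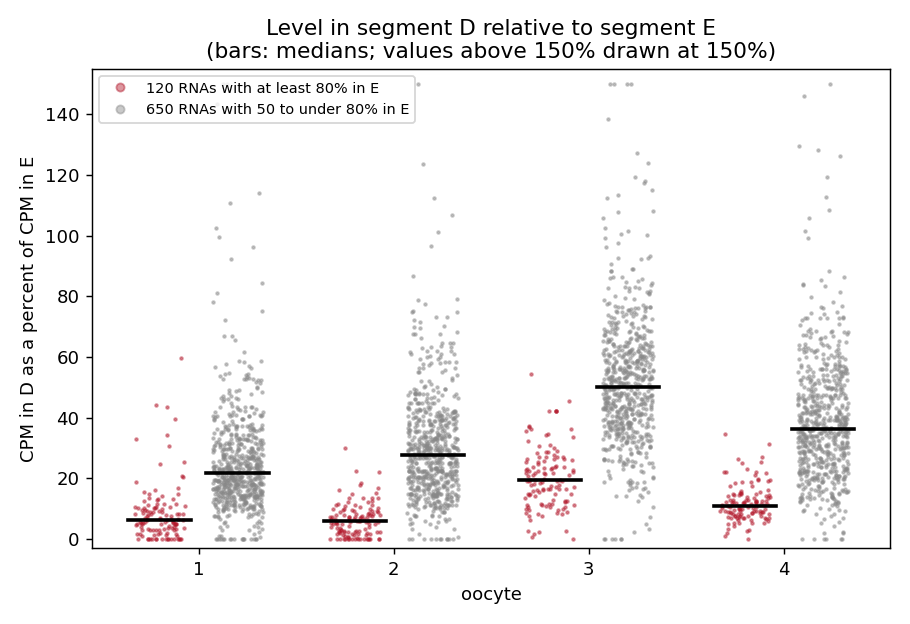
Level in D as a percent of the level in E for each of the 120 RNAs (left cloud of each pair) and each of the 650 features with a share of E from 50% to under 80% (right cloud), by oocyte, with bars at the medians. The medians of the 120 RNAs are 6.37%, 5.89%, 19.3% and 11.1% in oocytes 1 to 4, and the 650 features are also highest in oocyte 3.

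The share of E within a single oocyte also differed. It had a median over the members of 91.1% in oocyte 1, 92.1% in oocyte 2, 81.4% in oocyte 3 and 88.8% in oocyte 4. In 53 members it was at least 80% in all 4 oocytes, in 53 in exactly 3 and in 14 in exactly 2. Oocyte 3 was the weakest, with 70 members at or above 80%, against 104 in oocyte 1, 114 in oocyte 2 and 111 in oocyte 4.

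To read the share in an oocyte that had no part in the choice, the rule was applied to 3 oocytes and the share of E was taken in the remaining oocyte. Chosen without oocyte 1, 128 features passed, and 102 of them (79.7%) had a share of at least 80% in oocyte 1, where 1.13% of all features did. Chosen without oocyte 2, 118 passed and 102 (86.4%) reached 80% in oocyte 2, against 1.28% of all features. Without oocyte 4 it was 100 of 118 (84.7%), against 0.959%. In oocytes 1, 2 and 4, 125 of the 128, 113 of the 118 and 116 of the 118 features had their highest level in E. The lowest share of E was 0% in each of these 3 oocytes. Without oocyte 3, 164 features passed and 65 (39.6%) reached 80% in oocyte 3, against 0.731% of all features. The median share in oocyte 3 was still 77.2%, against 16.3% for all features, and 163 of the 164 had their highest level in E. The lowest share in oocyte 3 was 55.5%.

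The level of the members within E also differed between oocytes. The ratio of the highest to the lowest of the 4 libraries of E had a median of 3.02 and ran from 1.38 to 41.7. The lowest library was that of oocyte 1 in 90 members (75%), against 19.7% of all features with a mean of at least 2 CPM and 52.5% of the 650 features. In 75 members (62.5%) oocytes 3 and 4 were both above oocytes 1 and 2, against 10.7% of those features and 33.8% of the 650 features. Library totals in E were 6651808, 806943, 2698617 and 5531886 counts in oocytes 1 to 4, and whether depth bears on the order of the oocytes was not tested. Across the 120 members, log2 CPM in E correlated between pairs of oocytes with Pearson's r from 0.868 to 0.984, a description over features that share their libraries.

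A test of the 4 oocytes with the segment held fixed called 34 of the 120 members (28.3%) in edgeR, with the same threshold as for D against C. Of all features tested 26.2% were called, so the share of members is near that of all features and is no result about them. The smallest p belonged to rank 19, with 412, 24.8, 94.1 and 1032 CPM in E of oocytes 1 to 4 (adjusted p 3.15e-05, edgeR). Oocytes 1 and 4 were high for rank 19, and its share of E was at least 81.6% in every oocyte. Rank 39 followed, with 42.1, 105, 233 and 131 CPM in E (adjusted p 0.000113, edgeR), and was lowest in oocyte 1 and highest in oocyte 3. Rank 23, singled out after its values were seen, had 66.3, 351, 588 and 133 CPM in E, the reverse of rank 19, with oocytes 2 and 3 high. Such opposite orders were found in 8 members with both oocytes 1 and 4 above 2 and 3 (6.67%, against 30.5% of the features with a mean of at least 2 CPM and 18.2% of the 650 features). Oocytes 2 and 3 were both above 1 and 4 in 31 members (25.8%, against 21.4% and 30.8%).

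**Figure D5:**
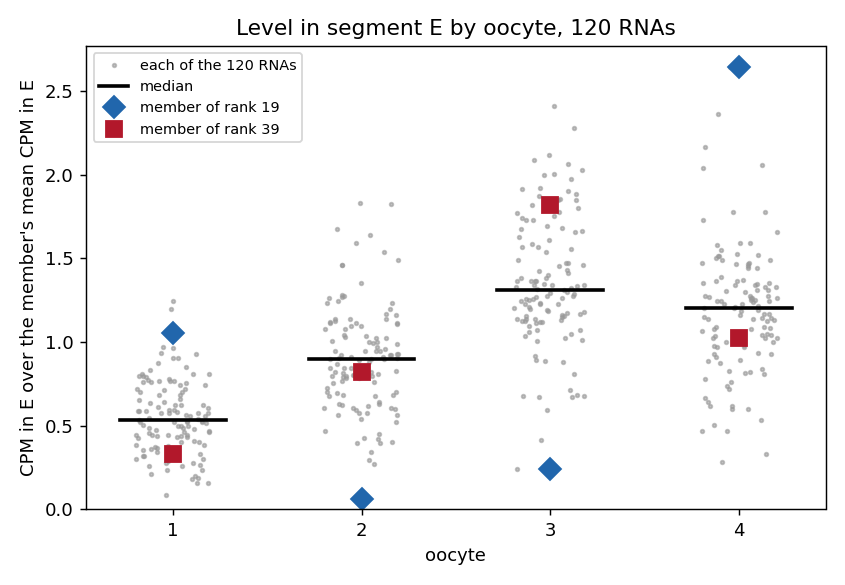
CPM in E divided by the member's mean CPM in E over the 4 oocytes, for each of the 120 RNAs, by oocyte, with bars at the medians (0.533, 0.8995, 1.31 and 1.20 in oocytes 1 to 4). The member of rank 19 is high in oocytes 1 and 4 and near 0 in oocyte 2, and the member of rank 39 is highest in oocyte 3.

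Some members carried neighbouring identifiers. A further member stood at the next or previous identifier for 16 of the 120, and the longest run held 6 members within 7 identifiers. The members of that run had mean levels from 2.02 to 5.75 CPM and shares of E from 84.1% to 95.7%. How often features of other sets stand at adjacent identifiers was not computed, so these counts are not read as a trait of the members. Ranks 2 and 3 were also consecutive, and in E they did not run in parallel. Rank 2 had 1140.3, 1281, 2725 and 2327 CPM in oocytes 1 to 4, while rank 3 had 1475, 543, 1059.8 and 3258 CPM. What adjacent identifiers stand for is not given in the sources used here, so reads shared between near-identical features could be split between them, and the number of separate genes among the 120 is not known.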

How the data were processed

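RNA of 20 segment libraries was sequenced after depletion of ribosomal RNA with a strand-specific kit, per the labels' protocols. The submitters' processing notes name Trimmomatic, STAR 2.5.3a, kallisto and DESeq2 without their roles. The annotation and genome build are not given in the sources used here. The authors deposited raw counts per feature, and a table of scaled values, a signal equal to each raw count times a constant per library; dividing by the constant gave whole reads for 100% of 659200 values (within 0.01 reads), all equal to the deposited counts. A count test on these reads with the authors' constants, added after the data were seen, called 25021 features for D against C.

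CPM used column totals. Tests used R 4.3.3 and edgeR 4.0.16 (filterByExpr with a minimum count of 10 and total of 15, TMM, robust quasi-likelihood, Benjamini-Hochberg adjustment over 32302 features, threshold 0.05); all 120 members passed the filter. Standard errors are the log2 fold change over the root of its F statistic. Figures used matplotlib 3.10.9. The scripts were tested on simulated data. The members, lists and tests were chosen with earlier results of these data known; features printed were ranks 1 to 10, those nearest the threshold, the extremes of the share of E, the 2 largest called changes of D against C, the 2 smallest p among oocytes and 2 preset identifiers. Alternatives were RLE factors, library totals, no filter, DESeq2 1.42.0, an adjusted p under 0.01 and thinned counts. Others were each oocyte left out, an oocyte block, C and D alone and, added after the data were seen, the authors' constants. For the rule they were TMM sizes, scaled values, the median, other thresholds, thinned counts and each oocyte left out. The labels tie libraries to oocytes by number, which pairs D with C; across features the paired deviations from each segment's mean correlated with r from 0.320 to 0.405.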

Additional observations from a re-analysis of the deposited data

Results flagged for a closer look

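Among 81 groups of 4 libraries of the printed members and summed values, 10 held a library far from the other 3. In 5 of the 10 the other 3 libraries were at 0, so that any read stood apart and no chance rate applies. Of the 76 other groups 5 stood apart, beside about 4 at a rate of 1 in 20. That rate is no test here, since ranks 19 and 39, which are among the 5, were printed for their differences among oocytes. Rank 7 had 5.83 CPM in A of oocyte 2 (40 counts), 0.169 CPM in B of oocyte 3 (2 counts) and 5.47 CPM in C of oocyte 3 (15 counts), each with the other 3 libraries of the segment at or under 0.501 CPM. Rank 18 had 3.79 CPM in A of oocyte 2 (26 counts) and 2.86 CPM in B of oocyte 3 (34 counts) and 0 elsewhere in A, B and C. Rank 50 had 2.48 CPM in A of oocyte 2 (17 counts), against 0 in A of the other oocytes. For rank 19 oocyte 4 stood apart, at 2.38 CPM in segment A and 79.7 CPM in segment D, against at most 0.333 and 13.5 CPM in the other oocytes. Rank 39 had 4.01 CPM in C of oocyte 3, against at most 0.677 CPM. AMEXTC_0340000070559 had 0.115 CPM in B of oocyte 1, a single read (1 count). A of oocyte 2 appears 3 times, and the 120 RNAs together were also highest there among the libraries of A, with 0.0341% of counts; no cause was tested.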

How the results depend on the processing

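The rule gave 76 features on the authors' scaled values, 54 of them among the 120; all 120 still had their highest mean in E there, with shares from 61.7%. A share of at least 70% gave 268 features and a share of at least 90% gave 28. With each oocyte left out in turn it gave 118 to 164, and TMM sizes, the median, other CPM minimums and thinning kept the number within 1.5 times. For D against C, 30 members passed at an adjusted p under 0.01 (1.23% of all features were higher in D). At an adjusted p under 0.05, 39 of the 79 still tested passed after thinning to the smallest library (2.92% of features higher in D). With an oocyte left out 5 to 50 passed at that threshold (0.583% to 1.96% of features higher in D). In a fit of C and D alone 50 members passed the filter and 0 were called by edgeR (49 at an unadjusted p under 0.05), as were 0 of all features; that fit has 8 libraries. With the oocyte as a replicate block 84 were called (4.14% of all features higher in D, 2.42% without it), 67 of them among the 68, and the block changed the call of rank 3 among the printed members. Except in the fit of C and D alone, these counts for D against C include members that do not pass its filter. They show how the number of calls moves and are no support for a rise in D. A negative fold change was fitted for 1 member under the block, without oocyte 1 and without oocyte 3, and for 4 with the authors' constants. Between oocytes, 9 members passed at an adjusted p under 0.01 (16.4% of all features) and 10 to 36 with an oocyte left out (17.3% to 21.7%). The level in D relative to E (mean of the 4 medians, 10.7%) was 13.5% on the scaled values, and the share of counts in E (2.41%) was 2.13% to 2.75% with an oocyte left out. For 14 printed members the fold change of D against C kept its sign in all 164 alternatives, lost its call in 35 and gained it in 3; no cause of these changes was tested. Counting error was widest for the members' summed counts in B of oocyte 4 (11.5% of the value) and at most 1.55% in E.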
